A study of Mus musculus with 8 samples.

Results

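Ly6 family transcripts were measured in splenic regulatory T cells (Tregs) and conventional CD4+ T cells (Tconvs) of mice with and without chronic engagement of CD27, a costimulatory receptor, by its ligand CD70. The members were the 6 genes Ly6a, Ly6c1, Ly6c2, Ly6d, Ly6e and Ly6k, taken by their gene names from the 52636 rows of the deposited table. Both kinds of mice carried a single functional copy of CD27 (CD27+/-) and were 6 to 8 weeks old. The controls were CD27+/- mice, and the CD70Tg mice (CD11c-Cd70tg;CD27+/-) carried in addition a transgene in which the CD11c promoter drives CD70 in dendritic cells. Sorting relied on a Foxp3-eGFP reporter, Tregs being CD4+ Foxp3+ (GFP+) and Tconvs CD4+ Foxp3- (GFP-), with 200000 sorted cells per library and 2 libraries in each of the 4 groups. The sample labels call the controls F1 or WT, and the columns of the table call them KO. Nothing in the sources used here says whether the 2 libraries of a group came from separate animals or from pools, so that p-values measure only the spread between these libraries. That spread was pooled over the 4 groups and moderated by the spread of other genes, so that it is not that of the 2 libraries of a group alone.

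The Ly6 proteins are small, cysteine-rich surface proteins with a three-fingered fold, most of which are held in the outer leaflet of the membrane by a glycosylphosphatidylinositol (GPI) anchor. Many of their genes lie side by side in a cluster that has expanded by duplication in the mouse. Ly6a encodes the stem cell antigen Sca-1, which is also displayed by activated lymphocytes and is induced by interferons. Ly6c1 and Ly6c2 encode the very similar proteins seen by antibodies to Ly6C, a marker of inflammatory monocytes and of some memory T cells. Ly6e encodes thymic shared antigen, an interferon-induced protein of thymocytes that also affects the entry of several viruses, Ly6d is known as a marker of early B-lineage cells, and Ly6k is known mainly from the testis, where it takes part in sperm migration.

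The 6 members lie within 350 kb of chromosome 15 (GRCm38, GENCODE M21 annotation) that hold 23 annotated genes. From the lower to the higher coordinate these are Ly6d (chr15:74762056-74763620), Ly6k (chr15:74796874-74799986), Ly6e (chr15:74955051-74959905), Ly6a (chr15:74994877-74998031), Ly6c1 (chr15:75044018-75048830) and Ly6c2 (chr15:75108158-75111970). Ly6e is on the plus strand and the other 5 are on the minus strand. The coding sequences of the Ly6c pair were nearly the same, and they are shown because they bear on how reads can be divided between them. They differ at 9 of 393 bases (stop codon not counted). In bases 1 to 300 of the coding sequences of the principal transcripts, 5′ to 3′ from GENCODE M21 on GRCm38, capitals mark the 7 differing bases that lie there:
Ly6c1: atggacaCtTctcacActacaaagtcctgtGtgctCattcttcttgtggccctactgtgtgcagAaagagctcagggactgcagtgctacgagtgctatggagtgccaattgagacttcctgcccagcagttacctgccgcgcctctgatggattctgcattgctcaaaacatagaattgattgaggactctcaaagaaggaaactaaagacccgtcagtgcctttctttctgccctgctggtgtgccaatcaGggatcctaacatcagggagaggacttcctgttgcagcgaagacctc
Ly6c2: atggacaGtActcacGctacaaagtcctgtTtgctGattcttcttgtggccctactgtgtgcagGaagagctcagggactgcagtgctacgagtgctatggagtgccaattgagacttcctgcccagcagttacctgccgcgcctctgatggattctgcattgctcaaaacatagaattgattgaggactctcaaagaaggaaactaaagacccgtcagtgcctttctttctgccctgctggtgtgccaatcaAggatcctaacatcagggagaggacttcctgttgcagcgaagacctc
The pair was identical at 97.7% of the aligned columns, with no gap. Ly6a was identical to Ly6c1 at 81.8% and to Ly6c2 at 81.6% of the columns, and, of the 6 genes aligned with it (the other members and Ly6i, a further gene of the cluster), it was closest to Ly6i (86.3%). Ly6d, Ly6e and Ly6k were 47.6% to 53.4% identical to each other and to the other members. Of all stretches of 50 bases in the principal transcripts, 36.7% in Ly6c1 and 33.0% in Ly6c2 also occurred in another transcript, in most cases that of the partner, against 8.05% in Ly6a and 0 in Ly6d and Ly6e. The split of reads between Ly6c1 and Ly6c2 is therefore less certain than the values of Ly6a, Ly6d and Ly6e. In Ly6k 29.2% of the stretches were shared with Gm17189, since 47.6% of the exon bases are covered by that gene, which runs on the opposite strand, and the strand setting of the counting was not given in the sources used here, so that reads of the pair may not be told apart.

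The libraries differed in depth, which sets the precision of the low members. The deposited values are scaled to about 20 M per library and were taken as rounded up to whole numbers. The small values in a column step by what 1 read is worth, and these steps placed between 1.9 and 33.2 M reads on genes. The Treg libraries held 1.9 to 4.53 M and the Tconv libraries 6.91 to 33.2 M, the highest of these being less certain because its step is below 1. Foxp3, the defining transcription factor of Tregs, read 19769 to 21367 in the 4 Treg libraries and 1039 to 1497 in the 4 Tconv libraries, so that the cells matched their labels. The CD70Tg libraries of both subsets carried more Eomes, a transcription factor of type 1 responses, with 1458 to 3386 against 75 to 352 in the controls. Before the sort of CD3+ CD4+ cells, the spleen cells had been depleted with antibodies against B cells, macrophages, dendritic cells, NK cells, granulocytes and CD8+ cells. These included an anti-GR1 antibody of a clone that binds Ly6G and also Ly6C, and anti-CD25 was added for Tconvs and not for Tregs. The part of these steps in the Ly6c values was not tested. In these bulk libraries a change in the share of expressing cells cannot be told apart from a change per cell.

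Ly6e and Ly6a were by far the most abundant members in every group. Together they made up 84.4% to 97.5% of the summed values of the 6 genes, which took 0.196% to 0.327% of a library's total. Per kb of the principal transcript, control Tconvs held 11840 of Ly6e and 10783 of Ly6a, and the libraries of these genes overlapped. Ly6c1 followed with 4472 per kb, Ly6c2 with 1090, Ly6k with 171 and Ly6d with 26.2. In control Tregs the order by this measure was the same, at 17161 for Ly6e, 10314 for Ly6a, 1488 for Ly6c1, 159 for Ly6c2, 61.9 for Ly6k and 47.0 for Ly6d. In CD70Tg mice Ly6a stood above Ly6e in both subsets, with 16092 against 12771 per kb in Tconvs and 21926 against 19859 in Tregs, and no library of the one overlapped with the other. All other neighbours in the order also did not overlap. When all annotated exon bases were used as the length, Ly6a (7329 per kb) stood above Ly6e (7137) in control Tconvs, and Ly6k stood above Ly6c2 in control Tregs (59.1 against 47.6) and in CD70Tg Tregs (190 against 129).

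**Figure D1:**
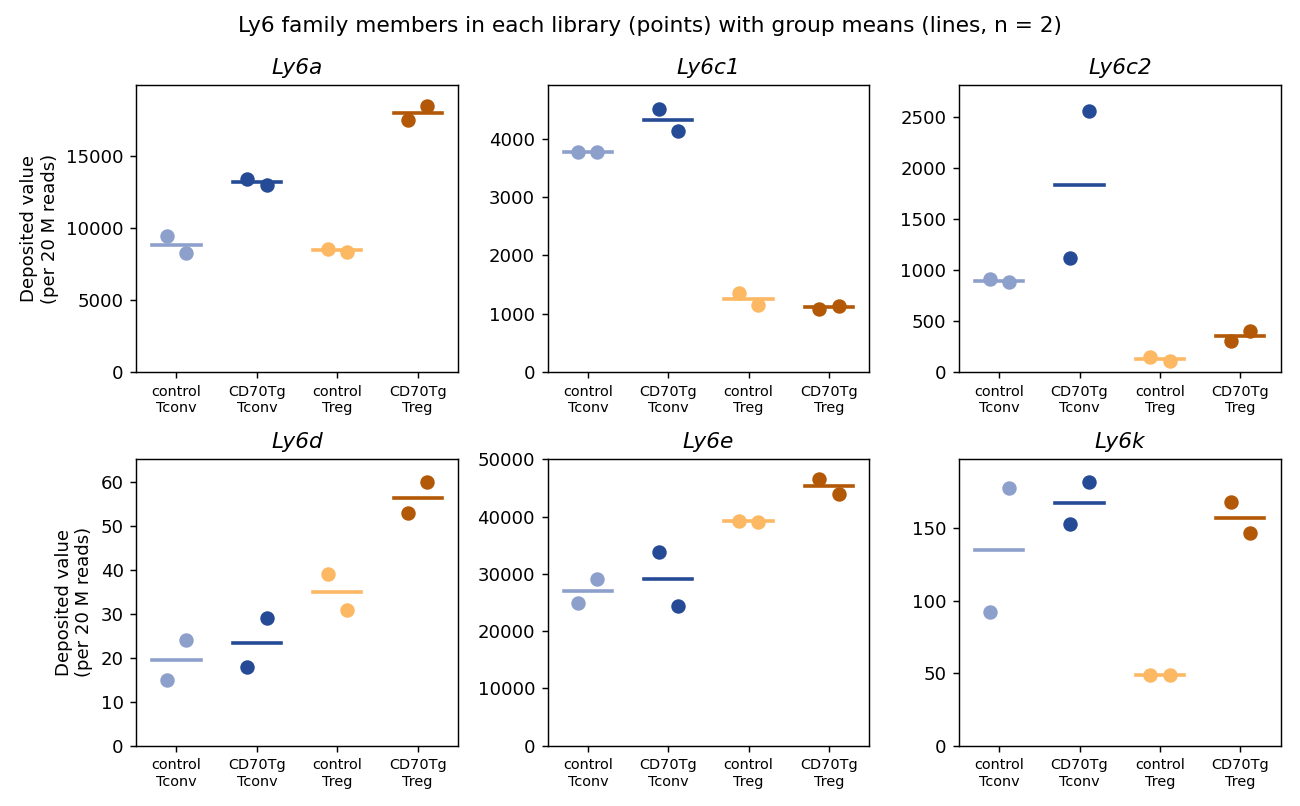
The deposited value of each member (vertical axis, per 20 M reads, starting at 0) is shown for each of the 8 libraries as a point, with the mean of the 2 libraries of a group as a line. Ly6a was higher in both CD70Tg groups, Ly6c1 and Ly6c2 were lower in Tregs than in Tconvs, and Ly6k had its lowest values in the control Treg libraries (49 and 49).

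The first question was which members differed between CD70Tg and control Tregs. Of the 5 members that reached the minimum for testing (at least 60 in at least 2 libraries), Ly6a, Ly6c2 and Ly6k were higher in CD70Tg Tregs and none was lower, at an adjusted p under 0.05 (limma with Benjamini-Hochberg adjustment over 12816 genes, on log2(value + 5)). Over all tested genes 3.94% were called higher and 3.46% lower. The median log2 fold change was 1.09 over these 5 members and -0.05 over all tested genes. Ly6d reached 60 in 1 library only and was not tested.

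Ly6a, the gene of Sca-1, had the most stable response. It read 8541 and 8354 in the control Treg libraries and 17460 and 18454 in the CD70Tg Treg libraries. The CD70Tg libraries lay far above both controls, and the libraries of a group differed little, with 8447.5 ± 132 in controls and 17957 ± 703 in CD70Tg Tregs (mean ± SD, n = 2). The log2 fold change was 1.09 ± 0.11 (SE, adjusted p = 3.4e-05), a fold of 2.12 with a 95% interval of 1.79 to 2.51. In Tconvs, Ly6a read 9419 and 8243 in controls and 12946 and 13412 in CD70Tg mice, again without overlap. There the log2 fold change was 0.58 ± 0.11 (SE, adjusted p = 0.003), a fold of 1.5 with an interval of 1.26 to 1.77. Ly6a was the sole member called in CD70Tg Tconvs, where 6.82% of all tested genes were called higher and 1.99% lower, and where the median log2 fold change was 0.37 over the 5 members and 0.01 over all genes. Its calls held in both subsets in all 18 alternatives that kept the limit of 0.05, with adjusted p-values of at most 0.0169 in Tregs and 0.0461 in Tconvs. With the further limit of an absolute log2 fold change over 1, the call in Tconvs was lost (4.07% of all tested genes were higher by that rule).

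Ly6c2, one of the pair of Ly6C genes, was low in Tregs and higher in those of CD70Tg mice. It read 151 and 110 in control Tregs and 304 and 403 in CD70Tg Tregs, from 31, 25, 29 and 74 reads. The groups did not overlap, nor did the exact 95% Poisson intervals of 102 to 213 and 70.8 to 161 in controls with that of 315 to 504 in CD70Tg library 2, whereas that of CD70Tg library 1, 203 to 435, overlapped with the interval of control library 1. These intervals cover counting error only. The log2 fold change was 1.41 ± 0.29 (SE, adjusted p = 0.0064), a fold of 2.65. The call was lost with limma-voom on the estimated reads (adjusted p = 0.432), with no minimum value (0.107), without control Treg library 2 (0.0601) and without CD70Tg Treg library 2 (0.0642), with log2 fold changes between 1.19 and 1.49. In Tconvs, Ly6c2 read 915 and 877 in controls and 1113 and 2555 in CD70Tg mice. Both CD70Tg libraries were above the controls, library 2 far more than library 1, and the log2 fold change of 0.91 ± 0.29 (SE) did not pass (adjusted p = 0.059), though it passed with limma-voom (adjusted p = 0.0168) and with the 4 Tconv libraries alone (adjusted p = 0.0392). It was 0.31 without CD70Tg Tconv library 2 (adjusted p = 0.616), the one at 2555, and 1.51 without CD70Tg Tconv library 1 (adjusted p = 0.000625).

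Ly6c1, its close relative, did not pass in either subset. It read 3780 and 3769 in control Tconvs, 4518 and 4128 in CD70Tg Tconvs, 1359 and 1152 in control Tregs, and 1087 and 1131 in CD70Tg Tregs. The log2 fold change was 0.19 in Tconvs (95% interval -0.06 to 0.45) and -0.17 in Tregs (-0.43 to 0.08), with an adjusted p of 0.44 in each. Although the libraries of the groups did not overlap, this was so for 23.7% of all genes upward in Tconvs and for 31.2% downward in Tregs. The share of Ly6c2 in the sum of Ly6c1 and Ly6c2 was 10% and 8.72% in control Tregs and 21.9% and 26.3% in CD70Tg Tregs. The exact 95% binomial intervals were 6.87% to 13.8% and 5.7% to 12.5% in the controls, below those of 15.1% to 29.8% and 21.2% to 31.8% in CD70Tg Tregs. They, too, cover counting error only. In Tconvs the share was 19.5% and 18.9% in controls and 19.8% in CD70Tg library 1, but 38.2% in CD70Tg library 2. With 2 libraries in a group, an exact permutation test of this share could not reach a small p, and none was run.

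**Figure D2:**
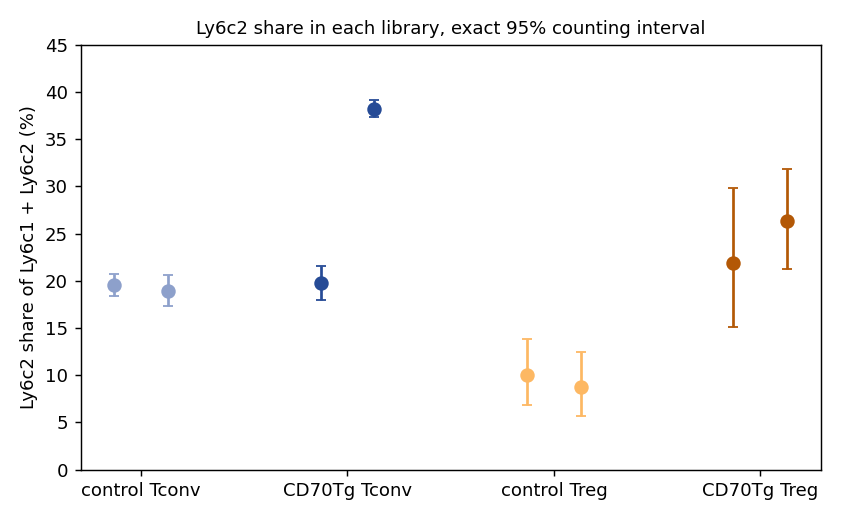
The share of Ly6c2 in the summed value of Ly6c1 and Ly6c2 (vertical axis, percent) is shown for each of the 8 libraries, with exact 95% binomial intervals from the estimated reads that cover counting error only. The CD70Tg Treg libraries (21.9% and 26.3%) lie above the control Treg libraries (10% and 8.72%), and 1 CD70Tg Tconv library (38.2%) stands apart from the other (19.8%).

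Markers of other cell types were read beside Ly6c2, which monocytes express strongly, and the sums of monocyte markers in both subsets, of neutrophil markers in Tregs, and of CD8 and dendritic cell markers in both subsets, were higher in CD70Tg libraries. The summed value of 6 markers of monocytes and macrophages was 4157 to 4168 in control and 5697 to 6082 in CD70Tg Tregs, and 1866 to 2037 in control and 2547 to 4317 in CD70Tg Tconvs, the highest Tconv sum being that of the library with the highest Ly6c2. Of the 6 markers, 2 were called higher and 1 lower in each subset. For this and the other marker lists, 3.94% of all tested genes were called higher and 3.46% lower in Tregs, and 6.82% and 1.99% in Tconvs. The monocyte sum was carried by Ccr2, a chemokine receptor that activated T cells also express, with 2748 and 3312 in CD70Tg and 1388 and 1410 in control Tregs. In Tconvs it read 331 and 528 in controls and 1415 and 2867 in CD70Tg mice, the highest value again being in the library with the highest Ly6c2. That library also read higher than the other CD70Tg Tconv library for some genes outside this list, such as Eomes (3386 against 2807). Cd68, a lysosomal protein of macrophages, read 224 and 211 in control and 262 and 348 in CD70Tg Tregs, and 79 and 51 in control and 245 and 306 in CD70Tg Tconvs. Lyz2, the lysozyme of myeloid cells, read 641 and 872 in control and 1181 and 1077 in CD70Tg Tregs but 788 and 835 in control and 436 and 643 in CD70Tg Tconvs. Csf1r, the receptor that defines macrophages, read 1500 and 1205 in control and 930 and 762 in CD70Tg Tregs, and Adgre1, the macrophage antigen F4/80, read 258 and 272 in control and 199 and 202 in CD70Tg Tregs. Itgam, an integrin of myeloid cells, read 146 and 198 in control and 377 and 381 in CD70Tg Tregs, but 178 and 166 in control and 93 and 80 in CD70Tg Tconvs. The single markers thus did not follow one direction. The summed value of 7 neutrophil markers was 5 to 10 in control and 199 to 223 in CD70Tg Tregs, and 10 to 29 in control and 6 to 21 in CD70Tg Tconvs. S100a9, the single one of these that was tested, rested on 0 and 1 reads in control and 9 and 19 in CD70Tg Tregs. It reached the minimum for testing only through the CD70Tg Treg libraries, so that its call there depended on the same values as the filter. Ly6g, the Ly6 gene that defines neutrophils, was at 11 or below in every library. The sum of the 2 CD8 T cell markers was 317 to 417 in control and 631 to 660 in CD70Tg Tregs, where 1 was called higher, and 681 to 720 in control and 1563 to 1590 in CD70Tg Tconvs, where both were. Cd8a, the CD8 alpha chain, read 17 and 28 in control and 508 and 608 in CD70Tg Tconvs. The 5 markers of dendritic cells summed to 74 to 129 in control and 187 to 201 in CD70Tg Tregs, and to 63 to 133 in control and 180 to 307 in CD70Tg Tconvs, where the single one tested was called higher. The 4 markers of NK cells had lower sums in CD70Tg libraries, at 36 to 64 in control and 11 to 17 in CD70Tg Tregs and at 534 to 603 in control and 179 to 224 in CD70Tg Tconvs, with 1 called lower in each subset. No marker of these lists was at 0 in all libraries. The depletion and the sort were directed against all of these cells. The part of any that remained in the Ly6c2 and Ly6a values was not tested.

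Ly6k, the gene known from the testis, was scarce in T cells but differed between the Treg groups. It read 49 and 49 in control Tregs, from 10 and 11 reads, and 168 and 147 in CD70Tg Tregs, from 16 and 27 reads. The exact Poisson intervals of the controls (23.3 to 89.2 and 24.0 to 86.1) lay below those of the CD70Tg libraries (95.5 to 271 and 96.6 to 213), but they cover counting error only. The log2 fold change was 1.59 ± 0.33 (SE, adjusted p = 0.0073), a fold of 3.0. The call was lost with limma-voom (adjusted p = 0.185), with no minimum value (0.0653), without control Treg library 1 and without CD70Tg Treg library 1. Over 18 alternatives the log2 fold change lay between 1.36 and 1.68. In Tconvs, Ly6k read 92 and 178 in controls and 153 and 182 in CD70Tg mice. These groups overlapped, and the log2 fold change of 0.37 did not pass (adjusted p = 0.64). Gm17189, the gene on the opposite strand, read 20 and 14 in control and 53 and 66 in CD70Tg Tregs (log2 fold change 1.56, adjusted p = 0.022), and whether these are reads of Ly6k was not tested. In the Treg libraries 1 read is worth 4.4 to 10.4, so that these values rest on few reads.

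Ly6e, the thymic shared antigen, did not pass in either subset. It read 39251 and 39038 in control Tregs, 46600 and 43998 in CD70Tg Tregs, 24949 and 29063 in control Tconvs, and 33894 and 24366 in CD70Tg Tconvs. The Treg groups did not overlap, which held for 22.5% of all genes in the upward direction, and the log2 fold change was 0.21 with an interval of -0.12 to 0.54 (adjusted p = 0.48). In Tconvs the CD70Tg libraries lay on either side of the controls, with a log2 fold change of 0.09 and an interval of -0.24 to 0.43 (adjusted p = 0.83). Ly6d, the B-lineage marker, read 15 and 24 in control Tconvs, 18 and 29 in CD70Tg Tconvs, 39 and 31 in control Tregs, and 53 and 60 in CD70Tg Tregs. In Tregs these values came from 5 to 11 reads. The Treg groups did not overlap, which again held for 22.5% of all genes in the upward direction. In a fit with no minimum value, Ly6d had a log2 fold change of 0.63 in Tregs (adjusted p = 0.47), and the value in Tconvs was 0.22 (adjusted p = 0.98). Between the subsets of CD70Tg mice its log2 difference was 1.13, which did not pass with no minimum value (adjusted p = 0.11) but did where genes had to read above 10 in every library (adjusted p = 0.033). The 6 markers of B and plasma cells summed to 318 to 401 in control Tregs, 454 to 515 in CD70Tg Tregs, 162 to 203 in control Tconvs and 67 to 101 in CD70Tg Tconvs. The part of B cells in the Ly6d values was not tested.

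**Figure D3:**
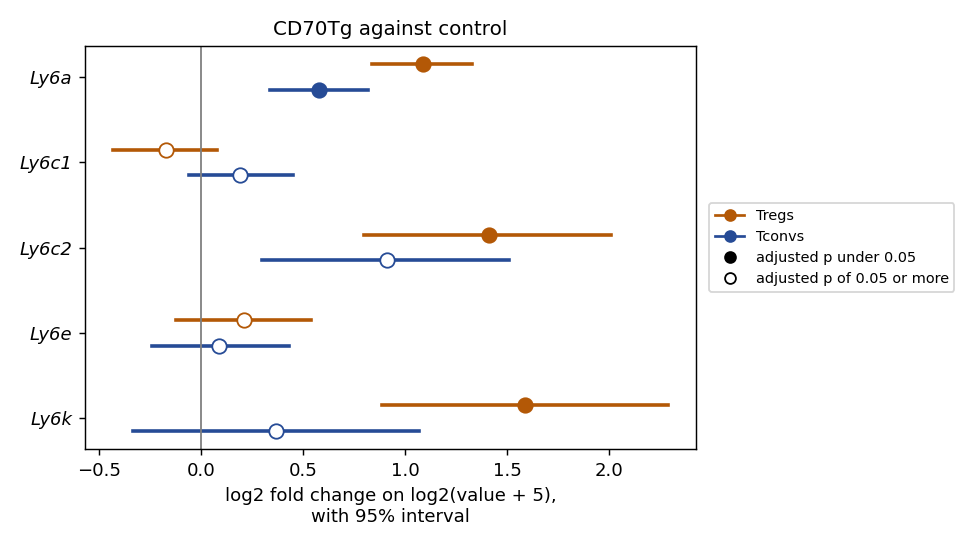
The log2 fold change of CD70Tg against control (horizontal axis, on log2(value + 5), with 95% intervals) is shown for the 5 tested members in Tregs and Tconvs, with filled points at an adjusted p under 0.05. Ly6a is filled in both subsets (1.09 and 0.58), Ly6c2 (1.41) and Ly6k (1.59) in Tregs alone, and Ly6c1 and Ly6e in neither.

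Whether the response itself differed between the subsets was tested as the response of Tregs minus that of Tconvs. None of the 5 members passed, and over all genes 0.195% were called higher and 0.827% lower. At an unadjusted p under 0.05 there were 3 of the 5 members, and 10.7% of all tested genes. Ly6a had a difference of 0.51 ± 0.16 (SE) on the log2 scale (adjusted p = 0.2), Ly6k of 1.22 ± 0.47 (adjusted p = 0.33, with 0.76 without control Tconv library 2 and 1.68 without control Tconv library 1) and Ly6c1 of -0.37 (adjusted p = 0.46). For Ly6c2 the difference was 0.50 (adjusted p = 0.73) and for Ly6e 0.12 (adjusted p = 0.91). The Ly6c2 difference was -0.10 without CD70Tg Tconv library 1 and 1.095 without CD70Tg Tconv library 2. The calls of Ly6c2 and Ly6k in Tregs and not in Tconvs are thus not shown to be a difference between the subsets.

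Tregs and Tconvs differed in most members already in control mice. Ly6c1, Ly6c2 and Ly6k were lower and Ly6e was higher in control Tregs than in control Tconvs, among tested genes of which 18.4% were called lower and 27.5% higher. The median log2 difference was -1.3 over the 5 members and 0.07 over all tested genes. Ly6c1 fell from 3774.5 ± 7.78 in Tconvs to 1255.5 ± 146 in Tregs (mean ± SD, n = 2), a log2 difference of -1.59 ± 0.12 (SE, adjusted p = 3.4e-08). Ly6c2 fell more, from 896 ± 26.9 to 130.5 ± 29, with a log2 difference of -2.75 ± 0.29 (SE, adjusted p = 1.2e-06). Both calls held in every alternative run. Ly6k was at 135 ± 60.8 in Tconvs and 49 in both Treg libraries (log2 difference -1.30, adjusted p = 0.0043), and this call was lost without control Tconv library 2 (-0.84, adjusted p = 0.118) and with limma-voom (adjusted p = 0.0568). Ly6e was at 27006 ± 2910 in Tconvs and 39144.5 ± 151 in Tregs, a log2 difference of 0.54 ± 0.16 (SE, adjusted p = 0.011). That call was lost in 6 alternatives at the same limit, with adjusted p-values from 0.053 to 0.112, among them without control Tconv library 1 (0.0914), without control Treg library 1 (0.053) and without control Treg library 2 (0.0586). Ly6a did not differ beyond the spread, with a log2 difference of -0.06 and an interval of -0.30 to 0.18 (adjusted p = 0.69).

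In CD70Tg mice, Ly6a joined Ly6e among the members higher in Tregs, and Ly6c1 and Ly6c2 were again lower. Over all genes 22.6% were called higher and 20.1% lower, and the median log2 difference was -0.08 over the 5 members and -0.02 over all genes. Ly6a had a log2 difference of 0.45 (adjusted p = 0.0055), which was lost without CD70Tg Treg library 2 (adjusted p = 0.0555), and Ly6e of 0.66 (adjusted p = 0.0034), which was 0.42 without CD70Tg Tconv library 2 and 0.89 without CD70Tg Tconv library 1. Ly6c1 had a difference of -1.96 (adjusted p = 4.7e-09) and Ly6c2 of -2.25 (adjusted p = 1.3e-05), which was -1.66 without CD70Tg Tconv library 2 and -2.85 without CD70Tg Tconv library 1. Ly6k, at 167.5 ± 20.5 in Tconvs and 157.5 ± 14.8 in Tregs, overlapped between the subsets and had a difference of -0.08 with an interval of -0.78 to 0.61 (adjusted p = 0.86).

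**Figure D4:**
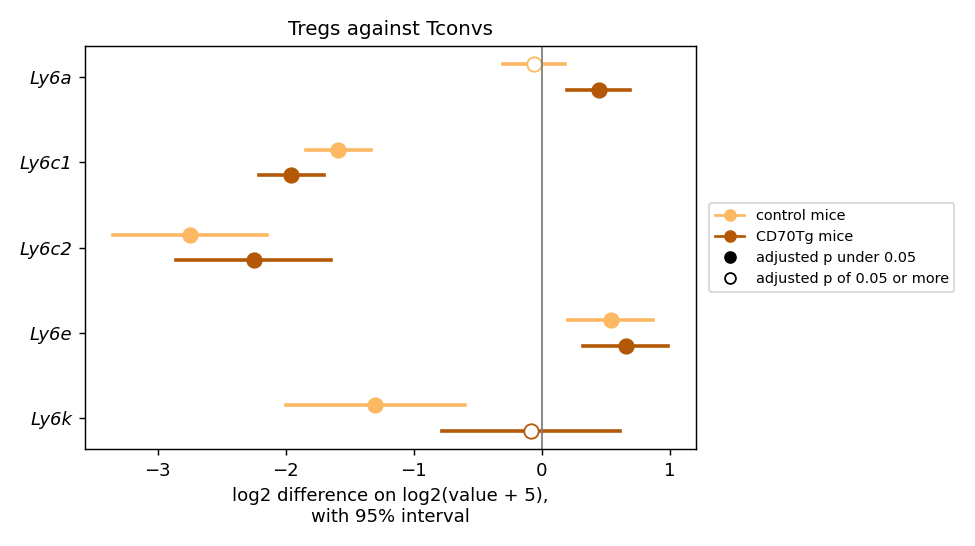
The log2 difference of Tregs against Tconvs (horizontal axis, on log2(value + 5), with 95% intervals) is shown for the 5 tested members in control and CD70Tg mice, with filled points at an adjusted p under 0.05. Ly6c1 and Ly6c2 lie far below 0 in both kinds of mice, and Ly6e above 0 in both. Ly6k is filled in control mice (-1.30) and open in CD70Tg mice (-0.08), and Ly6a is open in control mice (-0.06) and filled in CD70Tg mice (0.45), and the change of this difference with genotype did not pass for either gene (adjusted p = 0.33 and 0.2).

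Neighbours of the members in the cluster were examined next. Of 23 other tested genes within 1 Mb, 3 were called higher in CD70Tg Tregs and none lower, and in Tconvs none was called in either direction (limma, adjusted p under 0.05). Of all tested genes 3.94% were higher and 3.46% lower in Tregs, and 6.82% and 1.99% in Tconvs. The medians of the neighbours were -0.10 in Tregs and 0.05 in Tconvs on the log2 scale, close to those of all genes. Besides Gm17189 these were Ly6i and I830127L07Rik. Ly6i, of the genes aligned the one closest to Ly6a, read 107 and 53 in control Tregs, from 22 and 12 reads. It read 230 and 321 in CD70Tg Tregs, from 22 and 59 reads, without overlap. Its log2 fold change was 1.78 ± 0.35 (SE, adjusted p = 0.0048) in Tregs. It was 0.60 (adjusted p = 0.39) in Tconvs, where it read 65 and 80 in controls and 101 and 124 in CD70Tg mice. I830127L07Rik had a log2 fold change of 1.30 in Tregs (adjusted p = 0.031), and its value in Tconvs was 0.72 (adjusted p = 0.27). It read 44 and 75 in control and 136 and 164 in CD70Tg Tregs, again low values. The calls of neighbours were not examined under the alternatives. The genes called in Tregs, members included, all lay between -214 and 137 kb from the start of Ly6a. Within this stretch Ly6e and Ly6c1 did not pass, and no tested neighbour outside it passed.

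**Figure D5:**
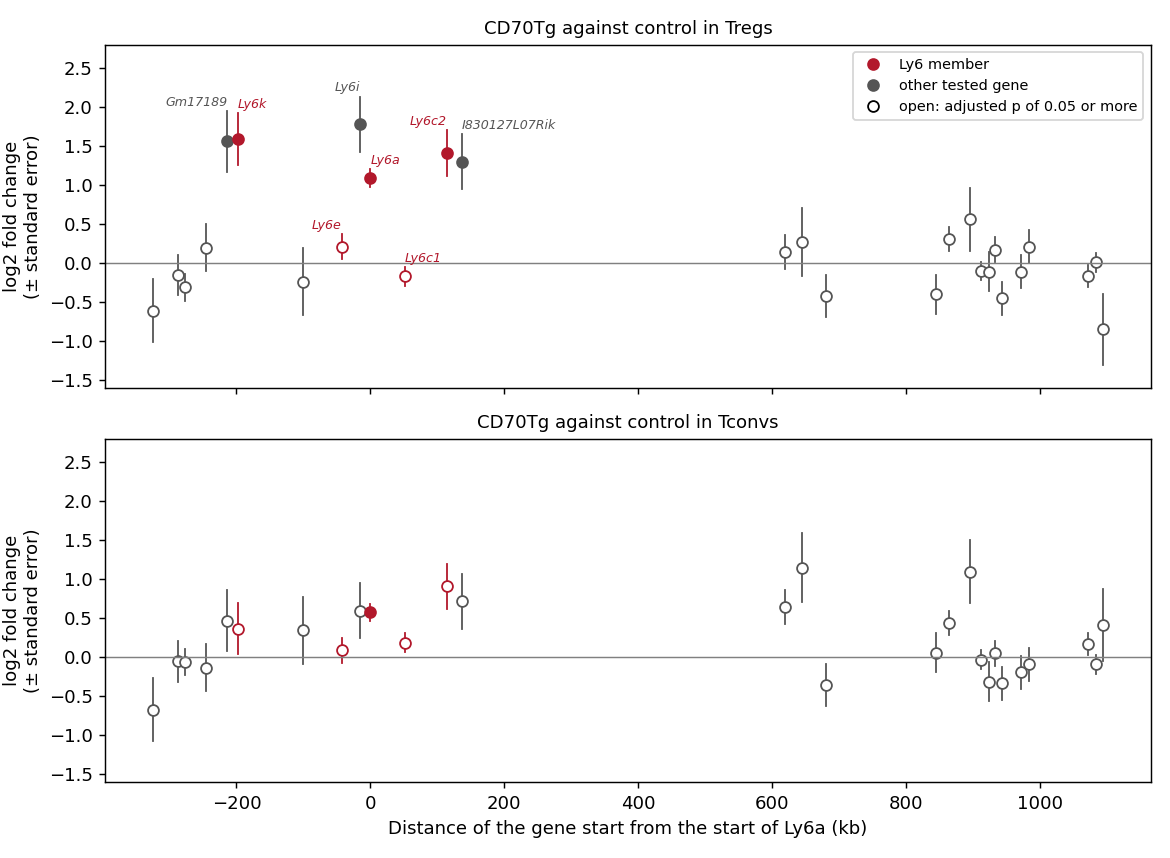
The log2 fold change of CD70Tg against control (vertical axis, ± SE) in Tregs and in Tconvs is shown for the members (red) and the other tested genes within 1 Mb of them (grey) by the distance of their start from that of Ly6a (horizontal axis, kb). In Tregs Ly6k, Gm17189, Ly6i, Ly6a, Ly6c2 and I830127L07Rik are filled (adjusted p under 0.05), and in Tconvs Ly6a alone.

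Most other genes of the Ly6/uPAR superfamily did not reach the minimum for testing. Of 35 such genes 33 were in the table and 4 were tested, of which Ly6i alone was called in CD70Tg Tregs (3.94% of all genes higher and 3.46% lower) and none in CD70Tg Tconvs (6.82% and 1.99%). Lypd6b, a relative that acts on nicotinic receptors, read 667 and 685 in control Tconvs and 459 and 349 in CD70Tg Tconvs, but 5 and 14 in control Tregs and 11 and 0 in CD70Tg Tregs, which are 3 reads or fewer. It was called lower in Tregs in control mice (adjusted p = 1.1e-07) and in CD70Tg mice (adjusted p = 2e-07), where 18.4% and 20.1% of all genes were called lower. Ly6g5b, of the family's cluster in the major histocompatibility complex, was lower in Tregs in control mice (log2 difference -1.28, adjusted p = 0.027), from 5 and 5 reads in the control Treg libraries. Lynx1, a modulator of nicotinic receptors, read 152 and 122 in control Tconvs and 83 and 84 in control Tregs and did not pass (adjusted p = 0.073).

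The genes that build and attach the GPI anchor were examined as a list. Of 29 such genes 27 were tested, none was called in CD70Tg Tregs (3.94% of all genes higher and 3.46% lower), and 1 was lower in CD70Tg Tconvs (6.82% and 1.99%), namely Pigx, a subunit of the enzyme that adds the first mannose (log2 fold change -0.48, adjusted p = 0.028). Their medians were -0.09 in Tregs and 0 in Tconvs. In control mice 2 were higher and 2 lower in Tregs than in Tconvs (27.5% and 18.4% of all genes), and in CD70Tg mice 1 was higher and 4 were lower (22.6% and 20.1%). The control difference was led by Dpm3, a subunit of the enzyme that makes the mannose donor (log2 difference -1.39, adjusted p = 1.6e-05). Interferon-induced genes, a class to which Ly6a and Ly6e are known to belong, were often higher in CD70Tg cells. Of 36 tested genes 14 were higher in Tregs and 19 in Tconvs and none was lower in either, against the 3.94% and 6.82% of all genes called higher. Their median log2 fold change was 0.37 in Tregs and 0.53 in Tconvs, against -0.05 and 0.01 over all tested genes. In Tregs Iigp1, a GTPase that acts on intracellular parasites, led with 1.37 (adjusted p = 4.9e-05), and the GTPases Igtp (1.11) and Gbp2 (1.22) followed (adjusted p = 5.9e-05 in each). In Tconvs the guanylate-binding protein genes Gbp2 (1.99, adjusted p = 7.4e-08) and Gbp3 (1.95, adjusted p = 1.5e-07) led. Gbp3 was the single gene of the list whose response differed between the subsets (Treg minus Tconv -1.32, adjusted p = 0.0044). Of 16 genes of naive and memory CD4+ T cells, 1 was higher and 4 were lower in CD70Tg Tregs, and 3 were higher and 2 lower in CD70Tg Tconvs, with medians of -0.30 and -0.03, where 3.46% and 1.99% of all genes were called lower. Cxcr3, a chemokine receptor of type 1 effector cells, was the one that was higher in Tregs (log2 fold change 1.64).

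The genes most like each member over the 8 libraries were found by Pearson's correlation of log2(value + 5), as a description, since the libraries share subset and genotype. For Ly6a these were Gm20721 (r = 0.983), Gnas (0.978), which encodes the alpha subunit of a stimulatory G protein, and Gm30873 (0.976). Gm30873 read 95 or less in every library. It reached the minimum for testing only through the CD70Tg Treg libraries, where Ly6a is highest, so that the filter bears on this likeness. For Ly6c1 they were Ehd3 (0.997), Slfn1 (0.996) and Tmem9b (0.994), and for Ly6c2 they were Degs1 (0.99), Stx8 (0.99) and Lgals3bp (0.984). Ly6e was most like Gm26789 (0.987), Gm44686 (0.976) and A930004J17Rik (0.972), which read 126 or less in every library. Gm26789 also reached the minimum only through the CD70Tg Treg libraries. Ly6k was most like 4930524O07Rik (0.959), Cmas (0.942) and Gm17189 (0.936). Among the members, Ly6c1 and Ly6c2 had r = 0.86 and Ly6c1 and Ly6e had r = -0.87 over the 8 libraries, and Ly6a and Ly6c1 had r = -0.23.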

How the data were processed

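RNA from sorted Tregs and Tconvs was sequenced in pairs of reads. The authors trimmed adapters with Trimmomatic 0.36, mapped to mm10 with STAR 2.5.3, counted with HTSeq 0.9.1, and deposited a score per gene and library. This score was taken as the count scaled to about 20 M and rounded up (library totals 19963628 to 20164600). Libraries were grouped by the column names. Since the values are not counts, the authors' DESeq2 test could not be run on them, and limma 3.58.1 in R 4.3.3 was used on log2(value + 5) with a trend in the prior variance, a coefficient for each of the 4 groups, all 8 libraries, and the 12816 genes that reached 60 in 2 or more libraries. P-values were adjusted over all tested genes in each of 5 contrasts. All adjusted p-values are limma's. Of the 52636 rows, 4131 clone-derived names were left out, and of 97 repeated names the row with the largest total kept the name. Gene positions, lengths and coding sequences were those of the GENCODE M21 annotation of GRCm38, where 99.6% of the table's identifiers were found. Sequences were aligned with Biopython 1.88, and intervals came from scipy 1.17.1. The depth is estimated from the step of the low values, and 3 reads were taken as the floor. The genes named were the members, tested genes of the Ly6/uPAR list, the 3 genes most like each member, up to 4 genes of each other list by adjusted p, and markers. The neighbours named are those called. The members and lists were chosen with earlier results of these data known. The procedure was tested on simulated data, for CD70Tg against control in Tregs and in Tconvs. In both, the share of false calls was above the limit set on the adjusted p. Calls close to that limit are therefore less certain than their adjusted p-values state. The alternatives were other pseudocounts, minimum values, scalings and thresholds, clone-named rows kept, limma-voom on estimated reads, a subset alone, and each library left out. The promoter motif search is not reported here.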

Additional observations from a re-analysis of the deposited data

Results flagged for a closer look

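The libraries of Ly6c1 lay on opposite sides of the controls in the subsets, although neither response passed (adjusted p = 0.44 in each). In Tconvs both CD70Tg libraries (4518 and 4128) were above both controls (3780 and 3769), whereas in Tregs both CD70Tg libraries (1087 and 1131) were below both controls (1359 and 1152). The response of Tregs minus that of Tconvs was -0.37 on the log2 scale, and its test did not pass (limma, adjusted p = 0.46, unadjusted p = 0.047). Of all tested genes, 23.7% did not overlap upward in Tconvs and 31.2% downward in Tregs.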

How the results depend on the processing

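No paired analysis was possible because the columns of the table carry no replicate numbers. The 3 members higher in CD70Tg Tregs became 1 with no minimum value and 1 with limma-voom, and 2 to 3 when a library was left out. The 1 member higher in CD70Tg Tconvs became 2, with Ly6c2, with limma-voom, 2 with the 4 Tconv libraries alone (Ly6c2 again) and 0 with an absolute log2 fold change over 1, and 1 to 2 when a library was left out. The 1 member higher in Tregs than Tconvs of control mice, Ly6e, became 0 with no minimum value, median-of-ratios factors, upper-quartile factors, a fold change over 1 or an adjusted p under 0.01, and 0 to 1 when a library was left out. The 2 members higher in Tregs of CD70Tg mice became 0 with a fold change over 1 and 3, with Ly6d, where genes had to read above 10 in every library, and 1 to 2 when a library was left out. Among called values, none changed sign. Other values that changed sign when 1 library was left out are given as log2 ranges over these fits. Ly6a between the control subsets ranged from -0.157 to 0.0353 (positive without control Tconv library 1), Ly6e in Tconvs from -0.144 to 0.332 (negative without CD70Tg Tconv library 1 and, at -0.0162, without control Tconv library 1), and Ly6k in Tconvs from -0.0904 to 0.825 (negative without control Tconv library 1). The difference of the responses ranged from -0.100 to 1.09 for Ly6c2 (negative without CD70Tg Tconv library 1) and from -0.122 to 0.354 for Ly6e (negative without CD70Tg Tconv library 2). Ly6k between the CD70Tg subsets ranged from -0.206 to 0.0375 (positive without CD70Tg Tconv library 2 and, at 0.00929, without CD70Tg Treg library 2). Of 435 values of single members under an alternative, 407 kept direction and side of the threshold, 17 no longer passed, 3 came to pass and 8 changed sign, and the cause was not tested. Depth limits Ly6d, Ly6k and Ly6c2 in Tregs, which rest on 5 to 74 reads per library. It also limits Gm17189, Ly6i and I830127L07Rik in Tregs, whose calls were not examined under the alternatives.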
